A study of Mus musculus with 6 samples.

Results

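Interferon-stimulated genes are the genes that cells switch on after sensing interferon, and 33 of the 54532 genes in the deposited tables were examined here as a group. They were taken by gene name from a supplied list of type I and type II interferon response genes, and all 33 were found in the tables and had enough reads to be tested. The list was used whole, and no measured value was used here to pick genes from it. The set holds 4 transcription factors, 2 sensors of viral RNA, members of the IFIT, OAS, MX and guanylate-binding protein families, the ISG15 system, immunity-related GTPases and other antiviral effectors.

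RNA-sequencing was performed on kidneys from cisplatin-treated C57BL/6J mice, 3 of them wild type (WT, replicates 1, 2 and 3) and 3 of them Trpm2-/- (replicates 1, 2 and 4). TRPM2 is a calcium-permeable cation channel of the plasma membrane that opens under oxidative stress, and the comparison asks how its loss alters gene expression in cisplatin-induced acute kidney injury. All mice were males that had received 18 mg/kg of cisplatin 72 h earlier, and the labels give their age as 6 to 8 weeks, whereas the methods of the study give a somewhat older range. The knockout is present in every cell of the body and removes exons that encode transmembrane segments of the channel. The WT mice were bought from a supplier and the Trpm2-/- line came from another laboratory, and the sources used here do not say whether the animals were littermates. Mice without cisplatin were not analysed here, so each level below is a level under cisplatin.

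Type I interferons act through a receptor made of IFNAR1 and IFNAR2, type II interferon acts through IFNGR1 and IFNGR2, and type III interferons through IFNLR1 and IL10RB. Receptor-bound JAK kinases phosphorylate STAT proteins. Complexes that hold STAT2 and IRF9 then bind interferon-stimulated response elements (ISRE) in promoters, whereas type II interferon acts mainly through gamma-activated sites (GAS). In injured kidney, nucleic acids that leak from mitochondria and nuclei are a known trigger of the same pathway, and both tubular cells and leukocytes can respond.

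The promoters of several of these genes carry such elements in plain sight, and 6 stretches are shown because they belong to genes with the values described below. RefSeq promoter sequences (build GRCm38.p6, 250 bases before to 50 bases after each start) were matched for 26 of the 33 genes. Capitals mark the letters of an ISRE (GAAA, any 2 bases, GAAA) or a GAS (TTC, any 3 bases, GAA), found on either strand, so that TTTC, any 2 bases, TTTC is an ISRE read from the other strand. Each line runs 5′ to 3′ along the strand of its gene.
Isg15, chr4:156200860-156200911, minus strand: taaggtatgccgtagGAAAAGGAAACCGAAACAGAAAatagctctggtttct
Ifit1, chr19:34640770-34640828, plus strand: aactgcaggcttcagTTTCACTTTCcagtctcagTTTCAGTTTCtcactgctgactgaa
Ifit3, chr19:34583358-34583431, plus strand: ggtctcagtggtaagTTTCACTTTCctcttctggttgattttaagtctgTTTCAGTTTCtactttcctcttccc
Bst2, chr8:71537572-71537623, minus strand: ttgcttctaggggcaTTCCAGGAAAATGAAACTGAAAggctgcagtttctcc
Gbp7, chr3:142530215-142530307, plus strand: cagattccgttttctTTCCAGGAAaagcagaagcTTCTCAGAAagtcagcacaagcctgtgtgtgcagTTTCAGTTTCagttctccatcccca
Irf1, chr11:53769909-53769947, plus strand: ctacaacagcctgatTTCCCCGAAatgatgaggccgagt

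Isg15 held 3 overlapping ISRE matches in a single run, and Bst2 held 2 that overlap by 4 letters, with a GAS that runs into the first of them. Ifit1 and Ifit3 each held 2 separate ISRE matches. Gbp7 had 1 ISRE beside 2 GAS, and Irf1 had a GAS without an ISRE in this window. An ISRE was found in 16 of the 26 genes with a sequence (61.5%), against 3.99% of 27025 genes with a RefSeq promoter. A GAS was found in 8 of the 26 (30.8%), against 9.55%. A match is a run of letters and not a measured binding site.

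The libraries held between 14053307 and 17150089 counts on genes, at which 3 counts correspond to 0.175 to 0.213 CPM (counts scaled to a common library total). The interferon-stimulated genes together took 0.0987% to 0.138% of them in WT mice and 0.122% to 0.138% in Trpm2-/- mice. Trpm2 itself had 5, 5 and 27 counts in WT replicates 1, 2 and 3 and 10, 16 and 20 counts in Trpm2-/- replicates 1, 2 and 4. These gene-level counts include exons that the knockout allele keeps, so they do not check the genotype. The summed level of 6 proximal tubule markers was 391 to 572 FPKM (fragments scaled by gene length and library total) in WT and 99.8 to 149 in Trpm2-/- mice, and that of the injury markers Havcr1 and Lcn2 was 750 to 891 and 1022 to 1251. That of 4 distal nephron markers was 891 to 1161 and 353 to 546 FPKM, whereas macrophage (63.6 to 87.7 and 47.0 to 64.4 FPKM) and endothelial markers (10.3 to 12.2 and 5.71 to 23.4 FPKM) overlapped between genotypes. Neutrophil, T and NK cell and B cell markers overlapped as well. The leukocyte gene Ptprc had 0.0857 to 0.161 FPKM in WT and 0.176 to 0.254 in Trpm2-/- mice, without overlap. Plasmacytoid dendritic cell markers, also very low, summed to 0.166 to 0.323 and 0.0264 to 0.137 FPKM, without overlap. Transcripts of the mitochondrial genome made up 4.43% to 4.72% of counts in WT and 7.91% to 11.0% in Trpm2-/- mice. In whole tissue, fewer cells of a type and less RNA per cell cannot be told apart, and the part of these shifts in the values below was not tested.

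The level of the interferon-stimulated genes spanned a wide range, given here in FPKM because it is per gene length. Bst2, which encodes tetherin, a membrane protein that holds budding virus at the cell surface, stood highest (ENSMUSG00000046718, chromosome 8, 71534255 to 71537456). Its level was 129, 111 and 132 FPKM in WT replicates 1, 2 and 3 and 83.6, 112 and 74.8 FPKM in Trpm2-/- replicates 1, 2 and 4. Trpm2-/- replicate 2 therefore lay beside WT replicate 2, and the other knockout mice were lower than any WT mouse. Irf7, the transcription factor that amplifies type I interferon production (ENSMUSG00000025498, chromosome 7, 141262706 to 141266481), followed with 44.8, 35.8 and 41.1 FPKM in WT and 37.4, 35.4 and 22.0 FPKM in Trpm2-/- mice. Its groups overlapped, with Trpm2-/- replicate 4 alone well below the rest. Isg15, a ubiquitin-like modifier (ENSMUSG00000035692, chromosome 4, 156199424 to 156200818), measured 43.9, 32.1 and 54.5 FPKM in WT and 23.5, 36.5 and 24.1 FPKM in Trpm2-/- mice. Here too Trpm2-/- replicate 2 reached into the WT range, which opened downwards through WT replicate 2. Over all 6 mice the mean levels were 107 FPKM for Bst2, 36.1 for Irf7, 35.8 for Isg15 and 32.5 for Ifit3, and the levels of Irf7, Isg15 and Ifit3 overlapped from mouse to mouse. The lowest member was Mx1 at a mean of 0.599 FPKM, with 27 to 61 counts per library.

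**Figure D1:**
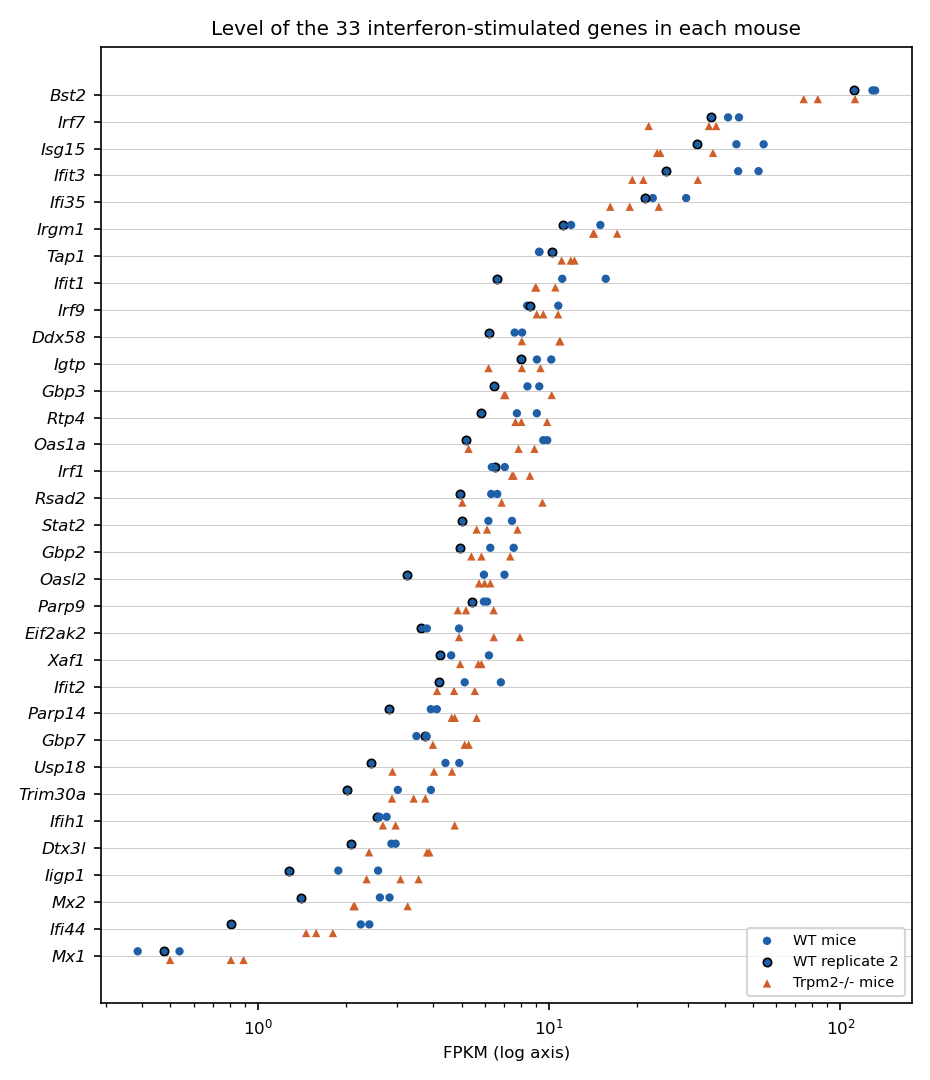
Level in FPKM (log axis) of each of the 33 interferon-stimulated genes in every mouse, ordered by mean level, with WT mice as circles (WT replicate 2 outlined) and Trpm2-/- mice as triangles. Bst2 stands highest at a mean of 107 FPKM and Mx1 lowest at 0.599, and for most genes WT replicate 2 is the leftmost circle.

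Between genotypes, the interferon-stimulated genes showed no call. With edgeR's quasi-likelihood test and Benjamini-Hochberg adjustment over 15816 genes, 0 of 33 were higher in Trpm2-/- kidneys at an adjusted p under 0.05, where 4.74% of all genes tested were, and 0 of 33 were lower, where 7.28% of all genes were. At the threshold of the study's methods, an absolute log2 fold change above 1 with an unadjusted p under 0.05, 0 were higher against 3.5% of all genes and 0 were lower against 4.1%. At an unadjusted p under 0.05 alone, 5 of 33 were higher (15.2%, against 14% of all genes) and 3 of 33 were lower (9.09%, against 14.3%). The highest WT mouse lay below the lowest Trpm2-/- mouse for 4 of 33 genes (12.1%, against 16.7%), and the reverse held for 0 of 33 (against 16.8%). These shares lie near or below those of all genes. DESeq2 called 1 gene higher (Eif2ak2) and 1 lower (Ifit3), and limma on FPKM called none. Each p-value sets the difference between genotypes against the spread between these 3 and 3 mice, which edgeR estimates with information shared across genes.

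The differences between genotypes were small beside the spread between mice. The median log2 fold change (Trpm2-/- against WT) was 0.12 over the 33 genes and 0.02 over all genes tested, with 19 genes above 0 and 14 below. No member went beyond 1 in either direction on the log2 scale, as 8.85% of all genes did. The 95% interval lay wholly between -1 and 1 for 28 of 33 (84.8%, against 59.4%). The exceptions were Ifit3, Eif2ak2, Mx1, Isg15 and Iigp1, whose intervals reached past 1 at one end. For 24 of 33 genes (72.7%, against 54.9% of all genes) the spread among the WT mice, on the log2 scale, was wider than the difference between genotypes.

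**Figure D2:**
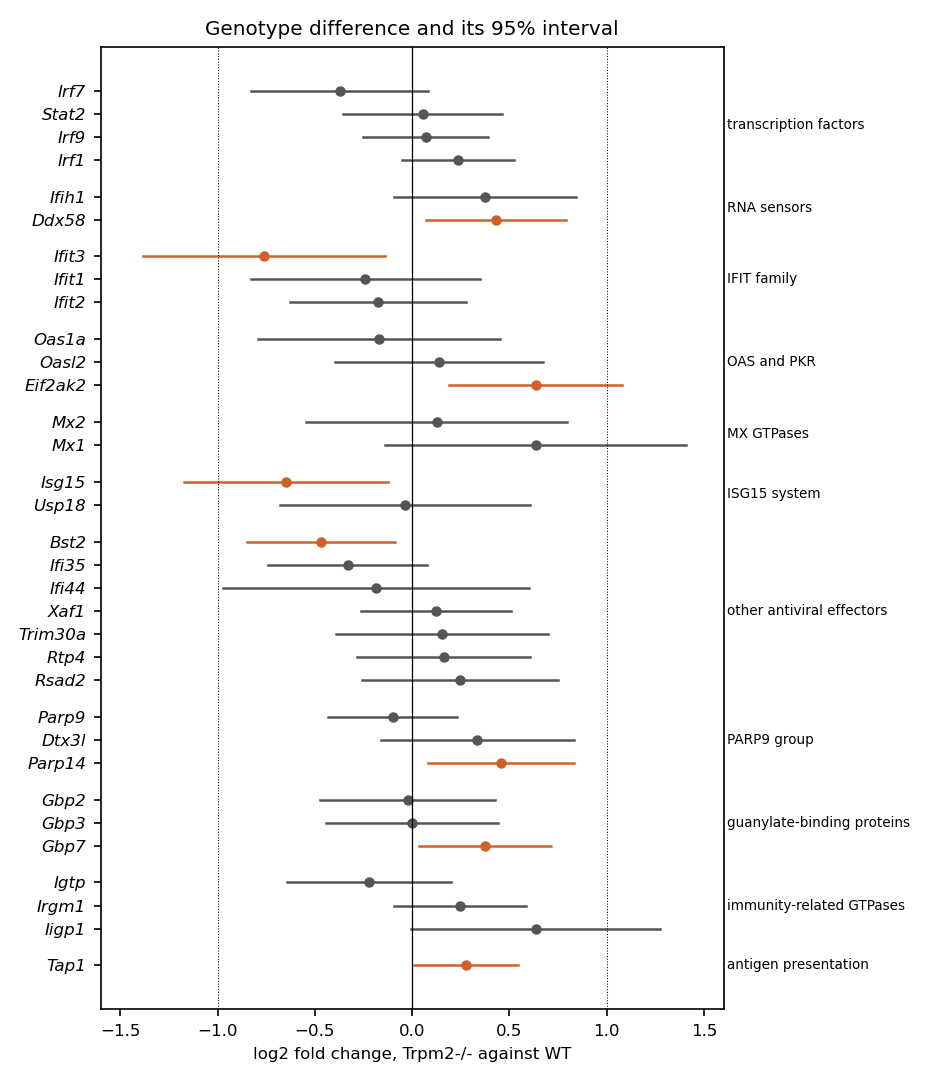
Log2 fold change of each interferon-stimulated gene in Trpm2-/- against WT kidneys (points) with its 95% interval from edgeR's quasi-likelihood test (bars), 3 mice per genotype, grouped by role, with dotted lines at -1 and 1. The 8 genes at an unadjusted p under 0.05 are in orange, from Ifit3 at -0.76 to Eif2ak2 at 0.63, and none passed at an adjusted p under 0.05.

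The transcription factors had log2 fold changes between -0.37 and 0.23. Irf9 and Stat2, whose proteins join in the complex that binds the ISRE, had log2 fold changes of 0.07 (95% interval -0.25 to 0.39) and 0.05 (-0.35 to 0.46). Irf1, a factor induced above all by type II interferon whose promoter stretch with a GAS is shown above, had 7.03, 6.49 and 6.35 FPKM in WT and 7.54, 8.58 and 7.45 FPKM in Trpm2-/- mice. Its groups did not overlap, with a log2 fold change of 0.23 (-0.05 to 0.52, adjusted p = 0.269 with edgeR). Irf7 had a log2 fold change of -0.37 (-0.83 to 0.08).

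The RNA sensors RIG-I (Ddx58) and MDA5 (Ifih1) both had values above 0. Ddx58 measured 7.60, 6.23 and 8.07 FPKM in WT and 10.9, 8.05 and 10.8 FPKM in Trpm2-/- mice. Trpm2-/- replicate 2 lay within the WT range and the other knockout mice lay above it. The log2 fold change was 0.43 (0.07 to 0.79), with an adjusted p of 0.112 in edgeR's quasi-likelihood test. It passed at an adjusted p of 0.0428 when Trpm2-/- replicate 2 was left out. It did not pass when any other mouse was left out (adjusted p = 0.186 to 0.365 with edgeR). Ifih1 had 2.76, 2.57 and 2.61 FPKM in WT and 4.73, 2.68 and 2.97 FPKM in Trpm2-/- mice, so its log2 fold change of 0.38 came mostly from Trpm2-/- replicate 1.

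IFIT proteins bind viral RNA and block its translation, and all 3 listed genes of the family had values below 0. Ifit3 (ENSMUSG00000074896, chromosome 19, 34583531 to 34588731) had the lowest log2 fold change of the 33, at -0.76 (-1.38 to -0.14, adjusted p = 0.107 with edgeR). Its levels were 44.5, 25.2 and 52.3 FPKM in WT and 19.3, 32.4 and 21.0 FPKM in Trpm2-/- mice. The groups overlapped, since Trpm2-/- replicate 2 lay above WT replicate 2, and the other knockout mice lay below every WT mouse. Without WT replicate 2 the log2 fold change was -1.01 with an adjusted p of 0.0452, and without Trpm2-/- replicate 2 it was -1.03 with an adjusted p of 0.0457. Leaving out any of the other mice gave -0.70 to -0.54, with adjusted p-values of 0.211 to 0.346 in edgeR. The call also depended on the test and the filter. With all mice, Ifit3 passed in DESeq2 (adjusted p = 0.0412) and in edgeR with no filter (adjusted p = 8.4e-05). It did not pass in limma on FPKM (0.211 and 0.223 with the pseudocounts 0.1 and 1) or in edgeR with the replicate block (0.504). Of the 75-base windows in Ifit3 transcripts, 41.1% also occur in its close copy Ifit3b, and reads there may have been counted to either. Ifit1 had 11.1, 6.61 and 15.6 FPKM in WT against 8.95, 9.01 and 10.5 FPKM in Trpm2-/- mice. The knockout values sat inside the much wider WT range, and its log2 fold change was -0.24 (-0.83 to 0.35). Ifit2 stood at -0.18 (-0.63 to 0.28).

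The OAS genes and PKR differed from each other. PKR, encoded by Eif2ak2, is a kinase that halts translation upon binding double-stranded RNA. Eif2ak2 measured 4.90, 3.63 and 3.80 FPKM in WT and 7.93, 6.45 and 4.90 FPKM in Trpm2-/- mice. Trpm2-/- replicate 4 was level with WT replicate 1, and the other knockout mice were higher than every WT mouse. The log2 fold change was 0.63 (0.19 to 1.08, adjusted p = 0.0684 with edgeR), the smallest adjusted p among the 33 genes. Without Trpm2-/- replicate 4 it was 0.81 with an adjusted p of 0.027. Leaving out any other mouse gave adjusted p-values of 0.0654 to 0.233 with edgeR. Oas1a, a synthetase whose product activates the nuclease RNase L, had a log2 fold change of -0.17 (-0.79 to 0.45), and 47.6% of its windows are shared with Oas1g. Oasl2 stood at 0.14 (-0.40 to 0.67).

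The MX genes had wide intervals. Mx1 had 0.386, 0.475 and 0.537 FPKM in WT and 0.498, 0.806 and 0.891 FPKM in Trpm2-/- mice. Its log2 fold change of 0.64 (-0.14 to 1.41) was the highest of the 33, and the groups overlapped through Trpm2-/- replicate 1. Mx2, which is annotated as a polymorphic pseudogene, stood at 0.13 (-0.55 to 0.80).

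In the ISG15 system, Isg15 had a log2 fold change of -0.65 (-1.17 to -0.13, adjusted p = 0.102 with edgeR's quasi-likelihood test), from the levels given above. Without Trpm2-/- replicate 2 it was -0.89 with an adjusted p of 0.0364. With any other mouse left out it did not pass (adjusted p = 0.0835 to 0.35 with edgeR), and without WT replicate 3 it was -0.46. Usp18 encodes the protease that strips ISG15 from proteins and also dampens the type I receptor. Its log2 fold change was -0.04 (-0.68 to 0.60).

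Among the other antiviral effectors, Bst2 had a log2 fold change of -0.47 (-0.85 to -0.09, adjusted p = 0.104 with edgeR's quasi-likelihood test). Leaving out Trpm2-/- replicate 2 gave -0.66 with an adjusted p of 0.0233. The adjusted p was 0.171 to 0.302 with edgeR when any other mouse was left out. Rsad2, which encodes viperin, an enzyme that makes a chain-terminating nucleotide, stood at 0.25 (-0.26 to 0.75). The remaining genes of the group, Ifi35, Ifi44, Xaf1, Trim30a and Rtp4, ranged from -0.33 for Ifi35 to 0.16 for Rtp4. Windows are shared with Gm45338 over 10.5% of Rtp4.

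Parp14, a mono-ADP-ribosyltransferase, measured 4.11, 2.81 and 3.92 FPKM in WT and 5.63, 4.62 and 4.74 FPKM in Trpm2-/- mice. The groups did not overlap, and the log2 fold change was 0.46 (0.08 to 0.83, adjusted p = 0.108 with edgeR). Parp9 and Dtx3l, whose proteins form an ADP-ribosyltransferase and ubiquitin ligase pair, had -0.10 (-0.43 to 0.23) and 0.33 (-0.16 to 0.83). They lie head to head on chromosome 16 with 682 shared bases on opposite strands, where reads cannot be assigned without strand.

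Guanylate-binding proteins and immunity-related GTPases attack the membranes around intracellular pathogens and are induced mainly by type II interferon. Gbp7 had 3.50, 3.74 and 3.78 FPKM in WT and 3.98, 5.29 and 5.12 FPKM in Trpm2-/- mice. Every knockout mouse was above every WT mouse, with Trpm2-/- replicate 1 only just so. Its log2 fold change was 0.37 (0.03 to 0.71, adjusted p = 0.140 with edgeR), and 11.3% of its windows occur elsewhere, in Gm43802 and Gbp3. Gbp2 and Gbp3 had log2 fold changes of -0.02 (-0.47 to 0.43) and -0.0026 (-0.44 to 0.44). Of the immunity-related GTPases, Iigp1 stood at 0.63 (-0.01 to 1.28), Irgm1 at 0.25 (-0.09 to 0.59) and Igtp at -0.22 (-0.64 to 0.20).

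Tap1, a subunit of the transporter that carries peptides to MHC class I molecules, had 9.26, 10.2 and 9.22 FPKM in WT and 11.0, 12.2 and 11.9 FPKM in Trpm2-/- mice. These groups did not overlap, and the spread within each was among the smallest of the set. The log2 fold change was 0.28 (0.01 to 0.55, adjusted p = 0.163 with edgeR's quasi-likelihood test).

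The interferon-stimulated genes also varied together between mice of the WT group. WT replicate 2 had the lowest CPM of the WT mice for 28 of the 33 interferon-stimulated genes (84.8%), where it was lowest for 30.9% of all genes tested. It was the lowest of all 6 mice for 20 of them (60.6%, against 15.8%). On the log2 CPM scale its median distance from the mean of the other WT mice was -0.43, and over all genes tested it was 0.02. The same measure was 0.13 for WT replicate 1 and 0.24 for WT replicate 3, and in the Trpm2-/- group it ran from -0.12 to 0.11. This pattern was noticed in the data and is given without a test.

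**Figure D3:**
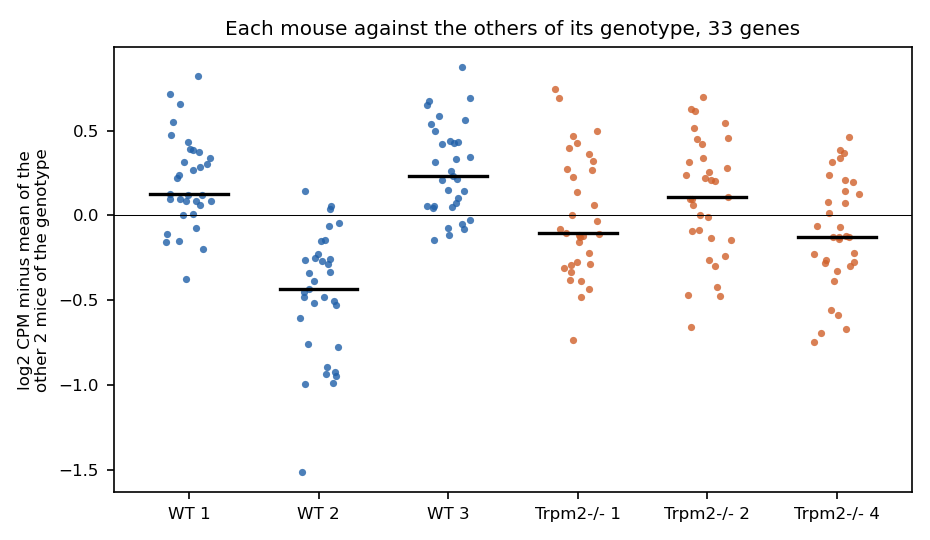
Distance of each mouse from the mean of the other mice of its genotype, in log2 CPM, for the 33 interferon-stimulated genes (points) with the median (bar). WT replicate 2 has a median of -0.43 and the other mice have medians between -0.12 and 0.24.

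The depth of this dip differed between groups of genes and within them. In WT replicate 2 the median log2 distance was -0.94 for the IFIT genes, -0.90 for the OAS genes with PKR and -0.76 for the ISG15 system. It was -0.48 for the Parp9 group, -0.45 for the guanylate-binding proteins, -0.44 for the MX genes and -0.39 for the other antiviral effectors. It was -0.27 for the immunity-related GTPases and -0.20 both for the transcription factors and for the RNA sensors, and Tap1 stood at 0.15. Some genes lay far from their group's median, with Eif2ak2 (PKR) at -0.25 and Mx1 at 0.06. The lowest single value belonged to Ifi44, a cytoplasmic antiviral protein, at -1.51, from 2.41, 0.808 and 2.25 FPKM in WT replicates 1, 2 and 3. Trpm2-/- mice had 1.58, 1.81 and 1.46 FPKM of Ifi44, all between WT replicate 2 and the other WT mice. Ifit1 stood at -0.99, Oasl2 at -0.99, Mx2 at -0.95, Ifit3 at -0.94 and Usp18 at -0.92. Irf1, Irf9, Mx1, Gbp7 and Tap1 were the 5 genes for which another WT mouse was lowest.

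Other interferon-inducible genes that are not among the 33 shared the pattern in part. WT replicate 2 was the lowest WT mouse for 33 of 64 such genes tested (51.6%), and for 13 of 35 pathway genes (37.1%). Among the 33, genes with an ISRE in the promoter window had a median distance of -0.41 (n = 16) and those with a sequence but no ISRE -0.31 (n = 10), with overlapping ranges. The summed macrophage markers were 63.6, 87.7 and 85.6 FPKM in WT replicates 1, 2 and 3, and the neutrophil markers 3.86, 16.1 and 10.2 FPKM. B cell markers summed to 1.62, 0.506 and 0.949 FPKM, T and NK cell markers to 0.542, 0.340 and 0.361 FPKM, and those of plasmacytoid dendritic cells, which make much type I interferon, to 0.322, 0.166 and 0.323 FPKM. WT replicate 2 was thus highest for the myeloid lists and lowest for the lymphoid and plasmacytoid lists, most of whose genes were under 1 FPKM in every mouse. The part of these cells in the dip was not tested. Without WT replicate 2, the median log2 fold change of the 33 genes between genotypes was -0.08 in place of 0.12.

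The genotype differences were also ordered by gene length. Across the 33 genes, which share the same 6 libraries, length and log2 fold change had a Spearman rho of 0.62, and across all 15816 genes tested it was 0.28. Of the genes shorter than the group's median of 3976 bases, 12 of 16 had a log2 fold change below 0 (75%, against 59.5% of all genes of such length), with a median of -0.17. Of those at or above it, 2 of 17 did (11.8%, against 36.8%), with a median of 0.25. The shortest member, Isg15 with 756 bases, and Bst2 with 903 were among the lowest values, and Parp14, the longest with 9306 bases, was among the higher ones. Gbp7, Tap1, Eif2ak2 and Ddx58 were all longer than the median, whereas Mx1 (3785 bases, 0.64) and Iigp1 (3121 bases, 0.63) were shorter. With a trend on gene length removed in each library, 2 genes were above 0 at an unadjusted p under 0.05 in place of 5, namely Eif2ak2, which was among the 5, and Iigp1, which was not. Ifit3 alone was below, in place of 3 genes. Isg15 then had a log2 fold change of -0.47 and Bst2 of -0.28. The part of RNA quality in this trend was not tested.

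**Figure D4:**
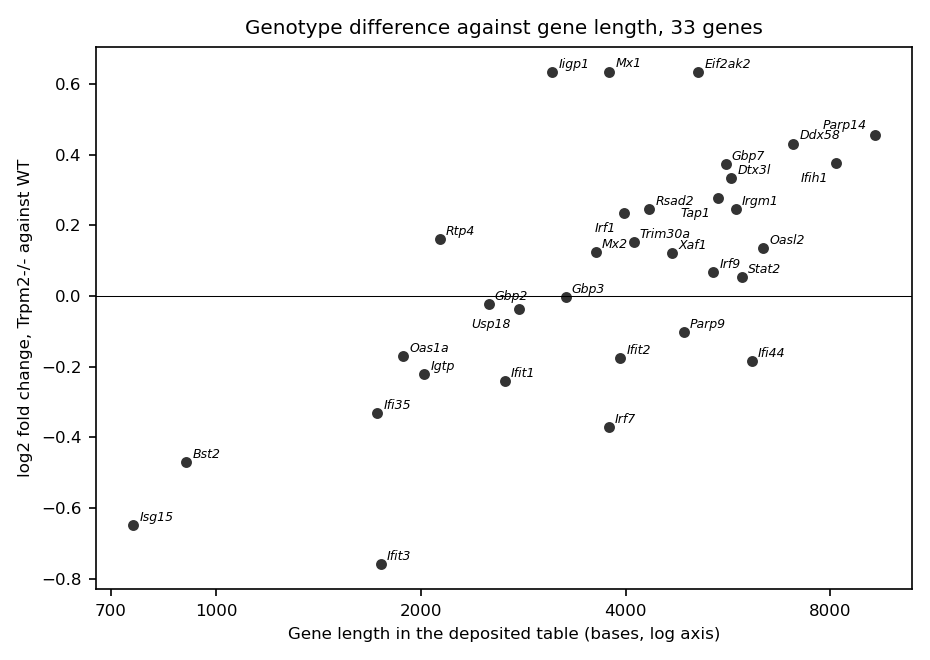
Log2 fold change of each interferon-stimulated gene in Trpm2-/- against WT kidneys, on the vertical axis, against its length in the deposited table in bases (log axis). The points run from Isg15 (756 bases, -0.65) to Parp14 (9306 bases, 0.46), with a Spearman rho of 0.62 over 33 genes.

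Upstream of these genes, the interferons themselves were at the edge of detection. Of 21 ligand genes, 12 had 0 counts in every library, which allows up to 0.175 to 0.213 CPM in each, and none passed the filter on low counts. Ifng, the type II interferon, had 0 counts in all 6 mice and Ifnb1 had 1 count, in Trpm2-/- replicate 2. The highest count was 9, for Ifnab in Trpm2-/- replicate 2. Ifnk had 4 to 7 counts per library, and Ifna2, Ifna7, Ifna13, Ifne, Ifnz and Ifnl3 had between 0 and 8. Differences between genotypes in the ligands were not detectable at this depth.

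The receptors were well expressed, and their values all lay above 0. Ifnar1, the signalling chain of the type I receptor, measured 8.49, 7.72 and 6.90 FPKM in WT and 11.8, 11.9 and 10.0 FPKM in Trpm2-/- mice, with every knockout mouse above every WT mouse. It rose by a log2 fold change of 0.54 (SE 0.14, adjusted p = 0.0333 with edgeR's quasi-likelihood test). The call was lost without WT replicate 1, 2 or 3 or Trpm2-/- replicate 1 or 2 (adjusted p = 0.0503 to 0.182), in limma on FPKM (0.0586 and 0.0609 with the pseudocounts 0.1 and 1), under the replicate block (0.108) and under the length correction (0.0525). Ifnar2 had a log2 fold change of 0.16, Ifngr1 of 0.31, Ifngr2 of 0.33, Ifnlr1 of 0.15 and Il10rb of 0.43. Ifngr1 was the most abundant, at 36.2 to 43.3 FPKM in WT and 42.2 to 54.3 FPKM in Trpm2-/- mice. Of the kinases, Jak2 stood at 0.60 (0.21 to 0.99, adjusted p = 0.0533 with edgeR), Jak1 at 0.44 (0.02 to 0.86) and Tyk2 at 0.22 (-0.12 to 0.57). The feedback inhibitors Socs1 and Socs3 had 0.52 (-0.39 to 1.42) and 0.50 (0.06 to 0.95).

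**Figure D5:**
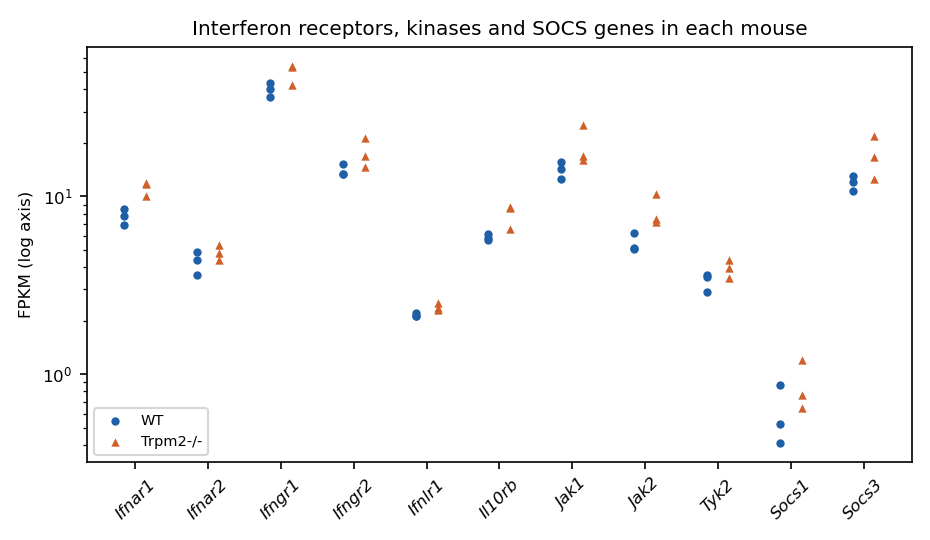
Level in FPKM (log axis) of 6 interferon receptor genes, the kinases Jak1, Jak2 and Tyk2 and the feedback inhibitors Socs1 and Socs3 in each WT (circles) and Trpm2-/- (triangles) mouse. Ifnar1 is the only one of these that passed at an adjusted p under 0.05, with WT mice at 6.90 to 8.49 FPKM and Trpm2-/- mice at 10.0 to 11.9 FPKM.

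Over the whole list of 60 pathway genes, 58 were found and 35 could be tested. Of these, 2 were called higher (5.71%, against 4.74% of all genes) and 0 lower (against 7.28%), with a median log2 fold change of 0.19. Beside Ifnar1 this was Tlr9, an endosomal receptor for unmethylated DNA. Tlr9 had 4, 2 and 3 counts in WT and 25, 12 and 19 counts in Trpm2-/- mice. It rose by a log2 fold change of 2.61 (SE 0.53, adjusted p = 0.0146 with edgeR), from a very low level of 0.0323 to 0.0622 FPKM in WT mice, and the call was lost without WT replicate 2 or 3 or Trpm2-/- replicate 1 (adjusted p = 0.0522 to 0.0851), in limma on FPKM (0.0908 and 0.111) and under the replicate block (0.106). Of 70 further interferon-inducible genes, 64 were tested, of which 1 was called higher and 1 lower (1.56% each, against 4.74% and 7.28%), with a median of 0.05. At the methods' threshold 0 of the 64 were higher, against 3.5%, and 2 were lower (3.12%, against 4.1%), Tgtp1 and the guanylate-binding protein gene Gbp8. Helz2, a nuclear coactivator with helicase domains, rose by 0.60 (SE 0.15, adjusted p = 0.0327 with edgeR). It had 2.29, 1.64 and 2.10 FPKM in WT and 3.14, 2.90 and 3.15 FPKM in Trpm2-/- mice, and it lost the call when WT replicate 2 or 3 or Trpm2-/- replicate 1 or 4 was left out (adjusted p = 0.0644 to 0.147), in limma on FPKM (0.0926 and 0.0964) and under the replicate block (0.0921). Its log2 fold change was 0.36 under the length correction, with an adjusted p of 0.119. Tgtp1, an immunity-related GTPase, fell, with a log2 fold change of -1.38 (SE 0.39, adjusted p = 0.0478 with edgeR). Its levels were 1.01, 0.790 and 1.08 FPKM in WT and 0.269, 0.280 and 0.569 FPKM in Trpm2-/- mice, without overlap. The call for Tgtp1 held only without Trpm2-/- replicate 4 among the fits that left out 1 mouse, with adjusted p-values of 0.0973 to 0.18 in the others. It was also lost in limma on FPKM (0.0695 and 0.0746), under the replicate block (0.077), under the length correction (0.0613) and without mitochondrial genes (0.0503). Reads of Tgtp1 are hard to assign, since 77.2% of its windows occur in Tgtp2 or Gm12185.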

How the data were processed

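Kidney RNA from 3 WT and 3 Trpm2-/- mice was sequenced, each mouse as 1 library. The count values are whole numbers of reads per gene as the authors deposited them, without normalization. The authors also deposited FPKM, in which each gene's reads are scaled by its length and by a library total. The submitters' processing notes name HISAT2, StringTie and mm9, with no versions. However, positions in the deposited tables equal those of the GENCODE mouse annotation, release M21 (GRCm38), for 53499 of 54409 matched genes (98.3%) and for 32 of the 33 members, and GRCm38 coordinates are printed here. Strandedness was not given in the sources used here.

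For tests, edgeR 4.0.16 was run in R 4.3.3. The default filterByExpr kept 15816 genes, TMM scaled the libraries, and genotype was the single term of a two-sided quasi-likelihood test with Benjamini-Hochberg adjustment over all genes tested (common dispersion 0.0445). Intervals are 95% intervals of that fit. CPM use TMM-scaled library totals, except the limit that 3 counts give, which uses totals without TMM. Distances between mice use log2(CPM + 0.1). Libraries held 14053307 to 17150089 counts. The limit that 3 counts give covers counting error only. Libraries of a genotype differed far beyond counting noise (chi-square over degrees of freedom 14.7 to 40.8), so none was a second run of another. This measure covers counting noise only and cannot tell separate mice from repeat preparations of the same RNA. Shared sequence was searched in 75-base windows of GENCODE transcripts. The code was checked on simulated counts.

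Alternatives were DESeq2 1.42.0, its size factors in edgeR, no filter, limma 3.58.1 on log2(FPKM + 1) or log2(FPKM + 0.1) of genes with a mean of at least 0.1 FPKM, a fit without mitochondrial genes, a replicate block, leaving out each mouse, and, chosen after seeing the data, a gene-length correction. In the replicate block, only the mice whose number occurs in both genotypes, replicates 1 and 2, inform the genotype term. The lists were chosen with earlier results of these data known. By rule, values in every sample are due for called members and the 3 of highest mean FPKM, and the ligands, receptors, kinases, Socs1, Socs3 and called genes of the other lists are named. A result that the rule asks for is not reported here. Members at an unadjusted p under 0.05, members without overlap, Ifih1, Ifit1, Mx1, Ifi44 and Gbp8, and the patterns by mouse and by length, were named after their values were seen.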

Additional observations from a re-analysis of the deposited data

How the results depend on the processing

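The size factors of DESeq2 left the number of calls in each list unchanged, whereas other tests, filters and designs moved several of these numbers. At an adjusted p under 0.05, DESeq2 called 1 of the 33 genes higher (Eif2ak2) and 1 lower (Ifit3), edgeR with no filter called 1 higher (Eif2ak2) and 3 lower (Bst2, Ifit3, Isg15), and the replicate block called 1 higher (Eif2ak2) and 0 lower. Leaving out 1 mouse gave 0 to 1 higher and 0 to 3 lower, with Ifit3 lower without WT replicate 2, Bst2, Ifit3 and Isg15 lower and Ddx58 higher without Trpm2-/- replicate 2, and Eif2ak2 higher without Trpm2-/- replicate 4. At the methods' threshold it gave 0 to 1 lower, Ifit3 without WT replicate 2 or Trpm2-/- replicate 2. With 1 mouse left out, the median log2 fold change of the 33 ranged from -0.0823 (without WT replicate 2) to 0.20 (without WT replicate 3). Under the replicate block, which compares only replicates 1 and 2 of each genotype, it was 0.25. The cause of the changes with 1 mouse left out was not tested.

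Of pathway genes, 5 were higher with no filter, 1 with the length correction, and 0 in limma with either pseudocount and under the replicate block, where 2 were called in the fit reported. Leaving out 1 mouse gave 0 to 4 higher and 0 to 1 lower. Of other interferon-inducible genes, DESeq2 called 2 higher and 2 lower, no filter 3 and 2, and limma with either pseudocount, the replicate block and the length correction 0 and 0, and without mitochondrial genes 0 were lower. Leaving out 1 mouse gave 0 to 2 in each direction. Calls over all genes went from 750 higher and 1152 lower to 160 and 470 without WT replicate 3, 176 and 521 without WT replicate 2, and 341 and 661 under the replicate block, and with no filter 1262 and 1692 of 28884 genes (4.37% and 5.86%, against 4.74% and 7.28%).

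The sign changed in some setting for 13 of the 33 genes, most of them with values near 0. Under the replicate block, log2 fold changes became 0.0607 for Ifit1, 0.21 for Oas1a, 0.38 for Usp18, 0.24 for Ifi44 and 0.19 for Gbp3. With the length correction they became -0.0186 for Stat2, 0.0065 for Oas1a, 0.0626 for Usp18, 0.10 for Gbp2 and 0.0561 for Gbp3. Usp18 was 0.0015 and 0.0094 in limma with the pseudocounts 1 and 0.1. Gbp3 was 0.0015 with DESeq2's size factors, 0.0016 in DESeq2, 0.0029 and 0.0028 in limma, and 0.0092 without mitochondrial genes. Leaving out 1 mouse at a time, the ranges were -0.17 to 0.13 for Gbp2, -0.21 to 0.11 for Gbp3, -0.54 to 0.0572 for Ifi44, -0.51 to 0.0868 for Ifit1, -0.33 to 0.0235 for Ifit2, -0.0095 to 0.19 for Irf9 and -0.13 to 0.31 for Mx2. They were -0.41 to 0.0328 for Oas1a, -0.13 to 0.37 for Oasl2, -0.0185 to 0.46 for Rsad2, -0.10 to 0.20 for Stat2, -0.0643 to 0.39 for Trim30a and -0.29 to 0.16 for Usp18.

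The replicate numbers share only 1 and 2 between genotypes. Deviations of same-numbered mice had correlations of 0.06 and -0.01, and those of unlike-numbered mice ran from -0.24 to 0.21. With so few same-numbered mice, these values cannot decide whether the numbers pair the mice. The 95% intervals of the fit give the sizes of difference that 3 mice per genotype and this spread allow.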
